A study of Drosophila melanogaster with 6 samples.

Results

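Maltases are alpha-glucosidases, enzymes that cut glucose from the end of maltose, sucrose and short starch fragments. In the fly gut they are known as digestive enzymes that act after the amylases have broken starch into shorter sugars. Their genes in Drosophila melanogaster are known to be less active in flies on sugar-rich food, a repression in which the activin ligand gene daw and the zinc finger gene sug take part. The family has a cluster of 8 Mal-A genes on chromosome arm 2R and a pair of Mal-B genes on arm 2L. All 10 were listed by gene name and found through the array annotation, each with 1 probe set of its own, among 11982 named genes of the series. The genes were chosen by family, with their levels, G418 changes and F3 differences already in view, so these values are given as a description and nothing is supported with them.

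RNA came from the proventriculus, the valve between foregut and midgut, of larvae at instar 3. All larvae carried hairy-gal4, which drives expression where the patterning gene hairy is active, and UAS-neoGFP, whose neo product inactivates the aminoglycoside G418. There were 2 arrays of unchallenged larvae, 2 of larvae challenged with G418, and 1 each of unchallenged larvae of generation F3 without past exposure and with past exposure in F1. The labels give no dose and do not say whether arrays of a group came from separate cultures, so errors and p-values reflect no more than array-to-array spread, whose source may be technical.

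The tissue label was set against 9 measured foregut and proventriculus markers, all of them at or above the median probe set mean of the series. The midgut and foregut regulator gene dve, for example, lay between 10.30 and 11.58 on the 6 arrays (log2 expression, the RMA scale used throughout). Of these 9 markers 8 were lower with G418, beside 52.3% of all genes, with a median log2 change of -0.50 over the 9. In 4 both G418 arrays lay below both unchallenged arrays, beside 20.1% of all genes. In 7 both F3 arrays lay above the other 4, beside 11.6%. The arrays also differed in genes of other tissues. The salivary glue gene Sgs3 had values of 8.70 and 13.03 on unchallenged replicates 1 and 2, of 14.43 and 13.72 with G418 and of 8.18 and 8.26 in F3. Some nervous tissue genes stood apart on unchallenged replicate 2, where fne was at 9.69 and repo at 7.42, against at most 3.92 and 3.49 elsewhere. Of the 11 measured nervous tissue markers, 2, para and futsch, were instead lowest on that array, at 3.85 and 5.51. The fat body gene apolpp ran from 11.43 to 12.89 over the unchallenged and G418 arrays, and had values of 5.81 and 10.32 in F3 larvae without and with past exposure. Lsp2, a storage protein gene of the fat body, had values of 8.95 and 12.87 there. Because of these differences each family result below is also given array by array.

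Probe sets differ in how strongly they bind, so the level of one maltase gene is not set against that of another. Of the 10 members, 7 had a mean at or above the median of all probe sets. Mal-A2, Mal-A7 and Mal-B1 lay below it, where RMA narrows differences.

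The first 3 genes of the cluster shared a pattern in which both G418 arrays lay above both unchallenged arrays. They encode proteins first described in Drosophila as larval visceral proteins. Mal-A1 was at 9.26 and 7.08 on unchallenged replicates 1 and 2, at 11.20 and 10.99 on G418 replicates 1 and 2, and, in F3 larvae without and with past exposure, at 6.64 and 6.01. Its groups did not overlap, with G418 on top and the F3 arrays lowest, although unchallenged replicate 2 stood much closer to the F3 array without past exposure than to its own replicate. The order of conditions from G418 to unchallenged held a gap of 2.92 between means, wider than the SD of 1.54 between the unchallenged arrays (n = 2). The next step, from the unchallenged mean to the F3 array without past exposure, was no wider than that SD.

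Mal-A3 was at 5.68 and 5.07 on the unchallenged arrays, at 7.61 and 7.02 on the G418 arrays and, in F3 larvae without and with past exposure, at 5.07 and 4.91. Here the G418 arrays stood clear of all 4 other arrays, and those 4 lay close together. Those 4 values were near the median of all probe sets, 4.98, toward the low signal at which RMA narrows differences. Mal-A2 was at 5.02 and 3.89 on the unchallenged arrays, at 5.32 and 5.05 on the G418 arrays and at 4.13 and 4.17 in F3 larvae. Its lower G418 array and its higher unchallenged array were nearly level, only 0.03 apart, and the F3 arrays lay inside the unchallenged range.

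Mal-A4, Mal-A6 and Mal-A7 were highest on G418 replicate 1, but their groups overlapped. Mal-A4 was at 5.92 and 5.21 on the unchallenged arrays, at 6.97 and 5.86 on the G418 arrays and, in F3 larvae without and with past exposure, at 5.24 and 4.77. Mal-A6 was at 10.72 and 9.15 on the unchallenged arrays, at 11.38 and 10.70 on the G418 arrays and at 8.38 and 7.12 in F3 larvae. For both genes unchallenged replicate 1 was just above G418 replicate 2, which made the overlap, and for Mal-A6 the F3 arrays lay below all others. Mal-A7 was at 5.39 and 4.62 on the unchallenged arrays, at 5.92 and 4.93 on the G418 arrays and at 4.36 and 4.51 in F3 larvae, with the same order on the first 4 arrays as Mal-A6.

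Mal-A5 and Mal-A8 separated the F3 arrays from the rest more than they separated G418 from unchallenged. From the unchallenged mean to the F3 array without past exposure, Mal-A6 also differed more, by -1.55 beside a G418 change of 1.10. Mal-A7 did so by -0.64 beside 0.42. Mal-A5 was at 11.30 and 9.85 on the unchallenged arrays, at 10.63 and 11.34 on the G418 arrays and, in F3 larvae without and with past exposure, at 7.84 and 8.30. It was the one Mal-A gene with G418 replicate 2 above G418 replicate 1, and its unchallenged replicate 1 was level with its highest G418 array. Mal-A8 was at 10.91 and 9.82 on the unchallenged arrays, at 10.80 and 9.95 on the G418 arrays and at 8.80 and 7.22 in F3 larvae. Its G418 range lay wholly inside its unchallenged range, and both F3 arrays were lower, most of all the one with past exposure.

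The Mal-B genes barely varied over the 6 arrays. Mal-B1 was at 4.51 and 4.12 on the unchallenged arrays, at 4.40 and 4.22 on the G418 arrays and at 4.33 and 4.35 in F3 larvae. Mal-B2 was at 7.92 and 7.72 on the unchallenged arrays, at 7.83 and 8.08 on the G418 arrays and at 7.93 and 7.83 in F3 larvae. From lowest to highest array they spanned 0.39 and 0.36, against 1.43 for Mal-A2, the least variable Mal-A gene, and 5.19 for Mal-A1. Mal-B1 is dim and Mal-B2 lies above the median of all probe sets. No condition of Mal-B2 differed from its neighbour in the order beyond the SD of 0.14 to 0.18 within groups (n = 2 each).

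**Figure D1:**
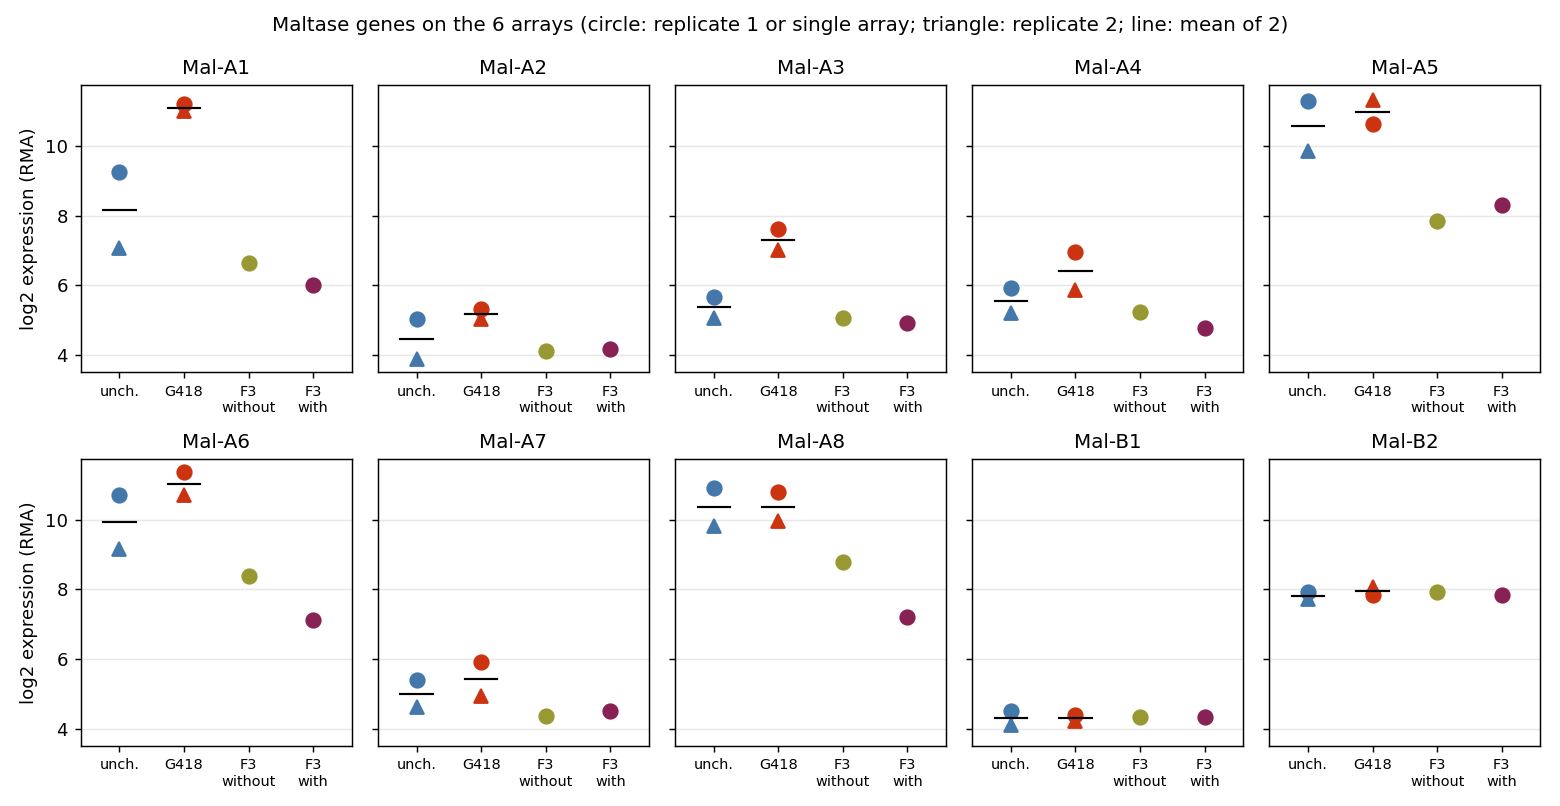
Log2 expression of the 10 maltase genes (y axis) in the 4 groups (x axis: unchallenged, shortened to unch., G418, and F3 without and with past exposure). Each point is an array, a circle for replicate 1 or a single array and a triangle for replicate 2, and a line marks the mean of 2 arrays. Mal-A1 and Mal-A3 are highest on both G418 arrays, Mal-A5, Mal-A6 and Mal-A8 are lowest on the F3 arrays, and the Mal-B genes are nearly flat.

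The first comparison the series was made for asks how RNA levels differ under the toxic challenge. All 8 Mal-A genes had a positive log2 change with G418, and so did Mal-B2, beside 47.7% of all genes, while Mal-B1 was at -0.01. The largest change was that of Mal-A1, 7.57-fold higher, from 8.17 ± 1.54 to 11.09 ± 0.15 (SD, n = 2 each). Mal-A3 was 3.83-fold higher, from 5.37 ± 0.43 to 7.31 ± 0.41 (SD, n = 2 each). Mal-A6, at a log2 change of 1.10 ± 0.60 (SE), was 2.15-fold higher. In tissue RNA a difference in the share of the cells that express a gene and a difference in RNA per cell cannot be told apart.

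The other members differed less. Mal-A4 had a log2 change of 0.85 ± 0.47 (SE) and Mal-A2 of 0.73 ± 0.42. Those of Mal-A7 and Mal-A5 were 0.42 ± 0.45 and 0.41 ± 0.57, smaller than their standard errors. Mal-A8, at 0.01 ± 0.49, and Mal-B2, at 0.13 ± 0.17, were near 0. The median over the 10 members was 0.58, beside -0.02 over all 11982 genes.

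Limma called 0 of 18769 probe sets (0.00%) at an adjusted p under 0.05, and so 0 of the 10 members. At an unadjusted p under 0.05 it gave 664 probe sets (3.54%), among them 2 members, Mal-A1 and Mal-A3, each with an adjusted p of 0.788 in limma. Groups lay apart with G418 above in 3 members, beside 18.3% of all genes, and with G418 below in 0, beside 20.1%. The change was at least 2-fold upward in 3, Mal-A1, Mal-A3 and Mal-A6, beside 2.19% of all genes. Since the family was chosen with this contrast in view, nothing is read from these shares.

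The sign of the difference held for all 4 pairs of a G418 and an unchallenged array in Mal-A1, Mal-A2 and Mal-A3, and turned with the pair in Mal-A4 to Mal-A8. Against unchallenged replicate 2, all 8 Mal-A genes were higher on both G418 arrays, beside 39.3% of all genes, with medians of 1.60 for G418 replicate 1 and 1.32 for G418 replicate 2. Against unchallenged replicate 1, 6 of 8 were higher on G418 replicate 1, with a median of 0.60, and 4 of 8 on G418 replicate 2, with a median of 0.00. On both G418 arrays, 3 of the 10 members were above unchallenged replicate 1, beside 27.7% of all genes. The medians over all genes against unchallenged replicate 1 were -0.03 for G418 replicate 1 and -0.01 for G418 replicate 2. The smallest of the 4 differences between a G418 and an unchallenged array was 1.73 for Mal-A1 and 1.34 for Mal-A3, both for G418 replicate 2 minus unchallenged replicate 1. For that pair Mal-A2 differed by 0.03, Mal-A4 by -0.06, Mal-A5 by 0.04, Mal-A6 by -0.02, Mal-A7 by -0.46 and Mal-A8 by -0.95. Without unchallenged replicate 2 the median change of the family was 0.10 and that of Mal-A1 was 1.83, and without unchallenged replicate 1 they were 1.17 and 4.01. The log2 change of Mal-A6 was 0.32 without unchallenged replicate 2 and 1.88 without unchallenged replicate 1, so its 2-fold size rests on unchallenged replicate 2.

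**Figure D2:**
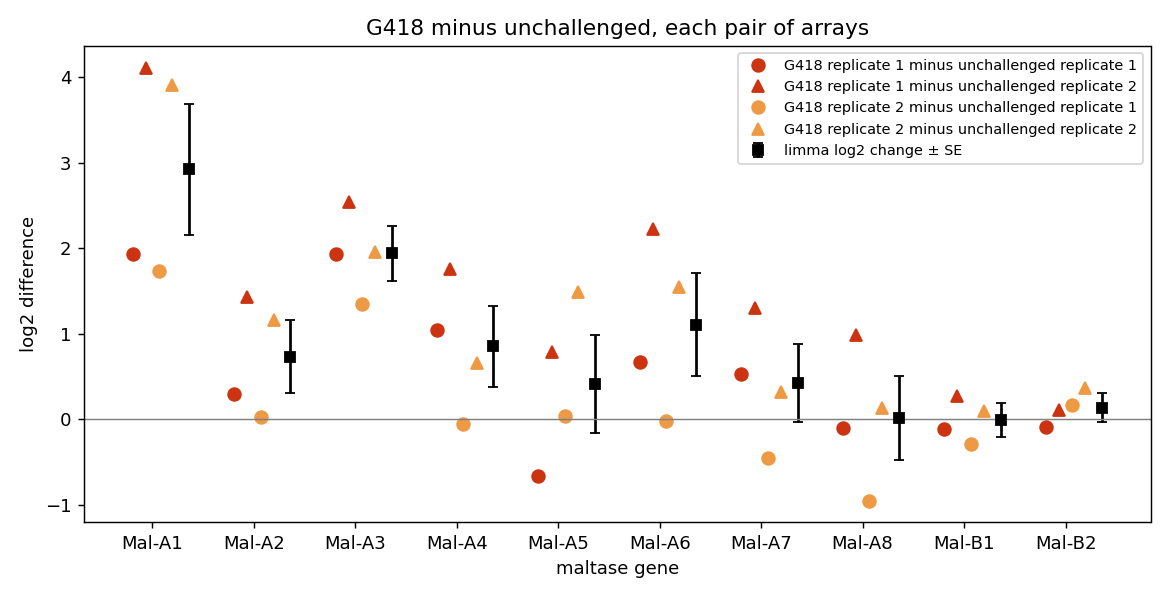
Log2 difference (y axis) of each maltase gene (x axis) for the 4 pairs of a G418 and an unchallenged array, with limma's log2 change and its standard error as a black square and bar. All 4 points of Mal-A1 and Mal-A3 lie above 1, and for Mal-A4 to Mal-A8 at least 1 point lies at or below 0.04.

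The 2 unchallenged arrays differed in the whole family. All 10 members had lower values on replicate 2 than on replicate 1, beside 49.5% of all genes. For 5 of them, Mal-A1, Mal-A2, Mal-A5, Mal-A6 and Mal-A8, the difference was at least 2-fold, beside 3.98% of all genes. Mal-A1 differed most, by -2.18 on the log2 scale, beside its G418 change of 2.92.

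Markers of several other tissues also differed between these arrays, in ways that varied by tissue. Of 12 measured salivary gland markers 12 were higher with G418, and the log2 of their summed signal was 11.30 and 15.22 on unchallenged replicates 1 and 2, 16.96 and 15.91 on the G418 arrays and 10.85 and 10.90 in F3 larvae. In the unchallenged pair 8 of the 12 salivary markers, Sgs3 among them, were higher on replicate 2, and 4, ng1, ng2, ng3 and Pig1, were lower there, as every maltase gene was. Nervous tissue markers, 11 measured, of which 3 were higher and 8 lower with G418, summed to 11.54 on unchallenged replicate 2 and to between 8.22 and 8.65 on the other arrays. Midgut enterocyte and region markers, 9 measured, of which 5 were higher with G418, summed to 12.89 and 11.94 on the unchallenged arrays, 12.95 and 12.58 on the G418 arrays and, for F3 larvae without and with past exposure, 11.78 and 11.70. The maltase genes summed to 12.81 and 11.49, 13.14 and 12.93, and 10.53 and 9.98 on the same arrays. Between the unchallenged arrays, all 9 midgut markers were lower on replicate 2. Fat body markers, of which 3 were higher and 3 lower with G418, summed to 16.00 and 14.61 on the unchallenged arrays and 15.33 and 15.68 on the G418 arrays, and all 6 were lower on unchallenged replicate 2. The 8 haemocyte markers, of which 2 were higher and 6 lower with G418, were also all lower there, with sums of 10.86 and 10.11 on the unchallenged arrays and 10.01 and 10.40 on the G418 arrays. Muscle markers, 6 of 7 higher with G418, summed to 12.77 and 12.79 on the unchallenged arrays and 12.78 and 12.99 on the G418 arrays. Malpighian tubule markers, all 4 lower with G418, summed to 9.16 and 8.08, and 7.61 and 8.22, on the same arrays. RMA values have no true zero, so no marker can be called absent, and the part of these tissues in the maltase values was not tested.

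The second comparison asks whether F3 larvae with past exposure of F1 differ from F3 larvae without it, with 1 array each and no replicate check. Mal-A8 and Mal-A6 were lower with past exposure. Mal-A8 was 2.98-fold lower, from 8.80 to 7.22, and Mal-A6 2.41-fold lower, from 8.38 to 7.12. Mal-A1 differed by -0.63 on the log2 scale, Mal-A4 by -0.47 and Mal-A3 by -0.16. Mal-A5 differed the other way, by 0.46, although it lies next to Mal-A6 in the cluster. Mal-A7, Mal-A2, Mal-B1 and Mal-B2 stayed within 0.15 of 0.

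At least 2-fold lower with past exposure were 2 of 10 members, beside 1.11% of all genes, and 0 were at least 2-fold higher, beside 0.434%. The family's median difference was -0.13, beside 0.02 over all genes, and -0.47 over the 7 members at or above the median probe set mean. The differences of Mal-A6 and Mal-A8, -1.27 and -1.58, compare with -1.56 and -1.09 between the 2 unchallenged arrays, so without a replicate the F3 difference of Mal-A6 is within what arrays of 1 group showed. The SD between unchallenged arrays of Mal-A8 was 0.77 (n = 2). Fat body markers, 6 measured, were higher with past exposure in 5 and lower in 1. Their log2 summed signal was 10.08 without and 13.63 with it. All 8 haemocyte markers were higher with it, with sums of 10.41 and 11.18, and so were all 7 muscle markers. All 4 Malpighian tubule markers were lower, with sums of 9.02 and 8.32. Nervous tissue markers were higher in 8 and lower in 3, and salivary gland markers in 4 and 8. Midgut enterocyte and region markers, like foregut and proventriculus markers, were higher in 5 and lower in 4. The part of these tissues in the maltase difference was not tested.

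**Figure D3:**
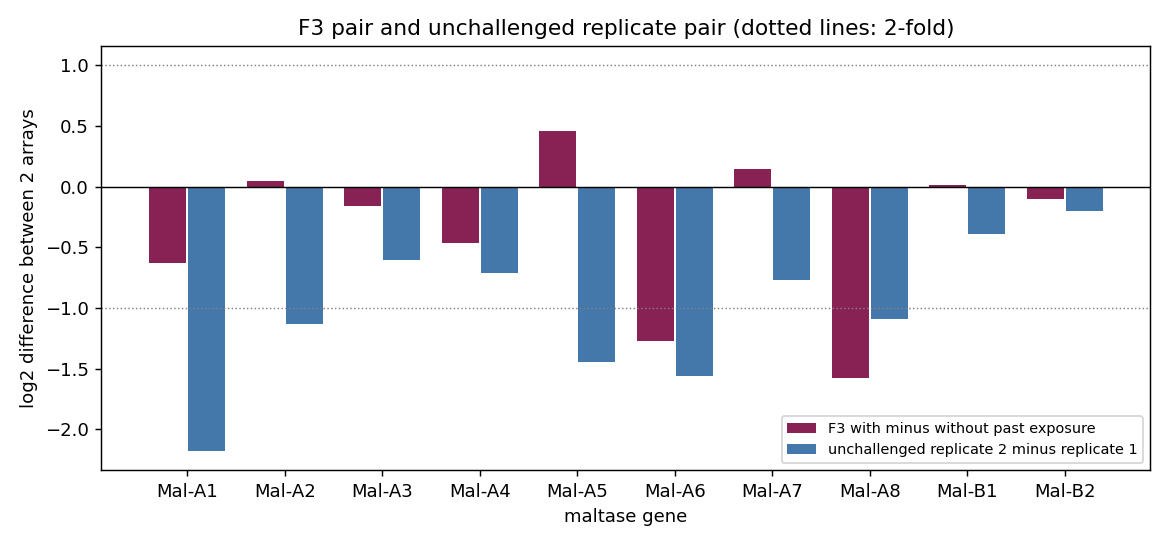
Log2 difference between 2 arrays (y axis) for each maltase gene (x axis), for the F3 pair with minus without past exposure and for unchallenged replicate 2 minus replicate 1. Dotted lines mark a 2-fold difference, which the F3 pair passes for Mal-A6 and Mal-A8 and the unchallenged pair for 5 members.

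Both F3 arrays lay below all 4 unchallenged and G418 arrays for 5 members, Mal-A1, Mal-A5, Mal-A6, Mal-A7 and Mal-A8, beside 7.13% of all genes. Mal-A5 had the widest gap, with a log2 difference of -2.74 between the F3 array without past exposure and the unchallenged mean. That array and the unchallenged arrays carry the same strain and no challenge, and generation, culture and array run cannot be told apart between them. Of 23 measured midgut proteases and lipases, which digest protein and fat beside the sugars that maltases release, 10 also had both F3 arrays lowest. So did 5 of 6 fat body markers, 5 of 9 midgut enterocyte and region markers and 5 of 12 salivary gland markers. The count was 0 of 11 nervous tissue, 0 of 8 haemocyte, 0 of 7 muscle and 0 of 4 Malpighian tubule markers. It was 0 of 10 sugar transporter, 0 of 10 glycolysis, 0 of 6 amylase-related and other alpha-glucosidase genes and 1 of 11 sugar-responsive regulators. Of 9 foregut and proventriculus markers 7 had both F3 arrays highest, beside 11.6% of all genes. The part of these tissues in the F3 levels of the maltase genes was not tested.

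Over the 6 arrays the Mal-A genes varied together. Pearson's r between pairs of Mal-A genes ran from 0.63 for Mal-A3 and Mal-A8 to 0.95 for Mal-A1 and Mal-A3, while Mal-B1 and Mal-B2 had an r of 0.17 with each other. The closest partner of Mal-A8 was Mal-A6, with an r of 0.95. The 6 points of each pair come from the same 6 arrays, so these values describe those arrays and were not tested. Sequence identity between members was not computed, so whether a probe set also binds RNA of another member was not tested.

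By the same measure each of the 4 bright members that varied most had its own set of most similar genes among those that were bright and varied. For each member these had the highest r of 2068 non-member genes, so their shared array pattern follows from how they were picked. Mal-A1 was followed most closely by CG14196, Ugt305A1, a UDP-glycosyltransferase gene, and Tsp42Ec, a tetraspanin gene, with r from 0.991 to 0.996. Ugt305A1 was at 6.91 and 6.25 on the unchallenged arrays, 7.62 and 7.30 on the G418 arrays and at or below 6.21 in F3 larvae. Mal-A6 was most like CG7191, Acbp6, an acyl-CoA binding protein gene, and Tsp42Er, another tetraspanin gene, all with r of 0.996 to 0.997. In the F3 pair Tsp42Er differed by -1.38 with past exposure, close to the value of Mal-A6.

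Mal-A8 was most like CG9568, the serine protease gene yip7 and Npc2e, a sterol-binding protein gene, with r from 0.991 to 0.998. Npc2e was at 10.45 and 9.41 on the unchallenged arrays, 10.04 and 9.51 on the G418 arrays and, for F3 larvae without and with past exposure, 7.70 and 5.63, the same order of single arrays as Mal-A8. Mal-A5 was most like CG8100, Nepl21, of the neprilysin-like metallopeptidases, and LManII, a lysosomal alpha-mannosidase gene, with r of 0.998 to 0.999. LManII was at 9.39 and 8.11, 8.75 and 9.47, and 6.30 and 6.45 on the same arrays. Its G418 replicate 2 lay above replicate 1, and its F3 array with past exposure slightly above the one without.

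**Figure D4:**
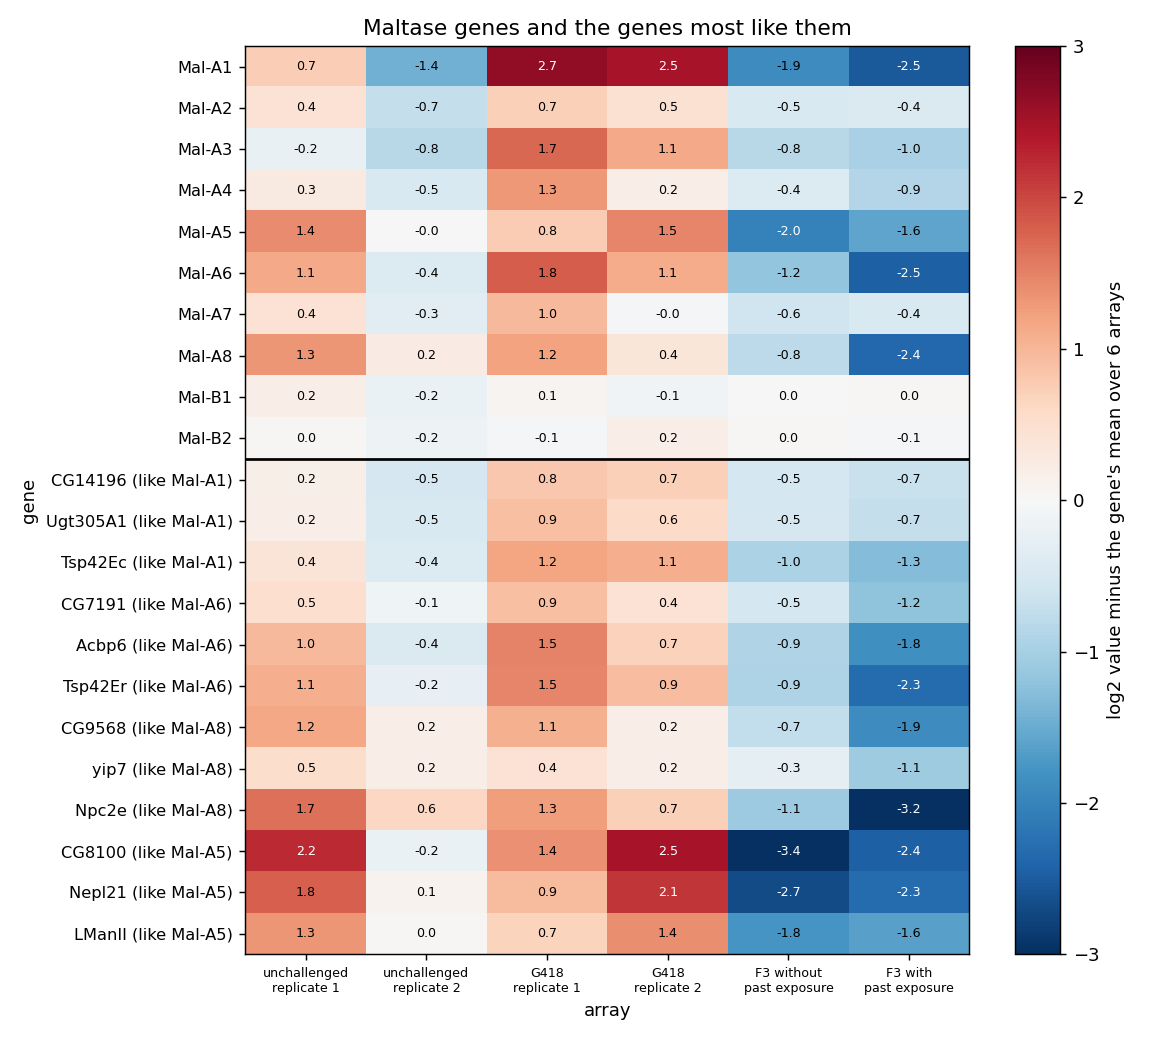
Log2 value minus the gene's own mean over the 6 arrays (colour and printed number) for the 10 maltase genes and the 3 genes most like each of Mal-A1, Mal-A6, Mal-A8 and Mal-A5 (rows), by array (columns). Mal-A1 is high on both G418 arrays, Mal-A8 and its partners are lowest on the F3 array with past exposure, and the Mal-B genes stay near 0.

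In the RefSeq gene order no other gene starts between Mal-A1 and Mal-A8, and the flanking genes are Cyp4e1, a cytochrome P450 gene, and mtt, a glutamate receptor-like gene. Cyp4e1 lay between 3.62 and 3.92 on all 6 arrays, and mtt between 3.08 and 3.32 except on unchallenged replicate 2, where it was at 4.27. Both are dim, so their narrow range is no measure of how far the pattern of the cluster extends. The genes beside the Mal-B pair, CG42486 and CG42751, had no probe set of 1 symbol here.

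Amylase-related and other alpha-glucosidase genes were compared as a list, which also held genes outside sugar digestion. The amylase genes Amy-p and Amy-d, and CG11909, had no probe set of 1 symbol here. The list is thus no measure of how sugar digestion genes as a whole differed. Of 6 measured amylase-related and other alpha-glucosidase genes, 3 were higher and 3 lower with G418, with a median log2 change of 0.04 and 0 called by limma, 1 at an unadjusted p under 0.05. Amyrel, an amylase-related gene, was dim, between 3.93 and 4.25 on all arrays. tobi, an alpha-glucosidase gene known in Drosophila as a target of insulin and glucagon-like signals, was at 5.50 and 5.52 on the unchallenged arrays and 5.36 and 6.27 on the G418 arrays. Treh, which splits the blood sugar trehalose, lay between 9.57 and 10.02 on the 6 arrays. GCS2alpha, the glucosidase II gene of the endoplasmic reticulum, and CD98hc, an amino acid transporter subunit related to maltases, had log2 changes of -0.04 ± 0.19 and -0.06 ± 0.20 (SE). CG33080 had a log2 change of -0.58 ± 0.17 (SE), with an adjusted p of 0.788 in limma.

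Of 10 sugar transporter genes, 8 were higher and 2 lower with G418, with a median of 0.30 and 0 called by limma, 1 at an unadjusted p under 0.05. Tret1-1, a trehalose transporter gene, was at 9.57 and 7.26 on the unchallenged arrays, 9.73 and 9.13 on the G418 arrays and 6.48 and 7.50 in F3 larvae, so its groups overlapped. sut2 was at 9.18 and 8.69 on the unchallenged arrays and 9.84 and 9.77 on the G418 arrays, without overlap. Glut1, a glucose transporter gene, had a log2 change of -0.78 ± 0.33 (SE), with both G418 arrays below both unchallenged arrays.

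Of 11 sugar-responsive regulators, 8 were higher and 3 lower, with a median of 0.02, 0 called by limma and 0 at an unadjusted p under 0.05. sug was at 9.16 and 7.87 on the unchallenged arrays, 9.67 and 8.92 on the G418 arrays and, for F3 larvae without and with past exposure, 8.20 and 7.65. daw was at 9.25 and 7.31, 8.92 and 8.83, and 6.46 and 6.89 on the same arrays. Like the maltase genes, both had their lower unchallenged value on replicate 2, and their groups overlapped. Smox, which encodes the Smad protein of the activin pathway, had a log2 change of -0.36 ± 0.28 (SE) and bigmax, the partner of the sugar sensor Mondo, of 0.30 ± 0.15. Of 10 glycolysis genes 7 were higher and 3 lower with G418, with a median of 0.06, 0 called by limma and 0 at an unadjusted p under 0.05.

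Midgut proteases and lipases were split with G418, 12 of 23 higher and 11 lower, with a median of 0.01, 0 called by limma and 1 at an unadjusted p under 0.05. The trypsin gene etaTry was at 8.11 and 6.63 on the unchallenged arrays, 9.21 and 8.40 on the G418 arrays and 6.38 and 4.76 in F3 larvae, the same order of arrays as Mal-A1. The lipase gene mag had a log2 change of -2.63 ± 1.30 (SE), and its G418 arrays differed from each other, at 9.40 and 5.84. The protease gene Jon65Ai had a log2 change of -1.01 ± 0.35 (SE), with an adjusted p of 0.788 in limma. In the F3 pair 22 of the 23 were lower with past exposure, 8 of them at least 2-fold, with a median of -0.53. Between the unchallenged arrays they were lower on replicate 2 in 22 of 23, as all 10 maltase genes were.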

How the data were processed

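RNA of larval proventriculus was measured on 6 Affymetrix Drosophila 2.0 arrays. Per the submitters' processing notes, the authors used RMA and the program Affymetrix Expression Console to make the deposited log2 values. Its version, and whether all arrays were normalized as 1 set, were not given in the sources used here. RMA narrows small differences at low signal. Arrays have no depth, and their number limits the precision. Of 18952 probe sets, 183 controls were left out and 18769 were fitted.

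Probe sets were named through the platform annotation, with symbols updated by gene identifier (RefSeq, assembly Release 6): 13647 had 1 symbol, 402 several and 4720 were unnamed here. A gene stood for its probe set of 1 symbol with the highest mean, which gave 11982 genes. The G418 comparison used limma 3.58.1 in R 4.3.3 (lmFit, eBayes), 2 against 2, with Benjamini-Hochberg adjustment over all probe sets and a threshold of 0.05. The fit was run on simulated data with independent noise of the fitted spread, to check the median estimates of planted changes. Such data lack the differences that many genes share between these arrays, so they do not show how well changes are found here. The F3 arrays have 1 array a group and were not tested.

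The maltase genes, the comparison lists and the rules were chosen with earlier results of these data known. All maltase genes were named whatever their values, with set genes of the lists, flanking genes and, for each of the 4 bright members that varied most, the 3 genes with the highest Pearson r over the 6 arrays. The rule for lists added up to 3 genes with the largest absolute change in each of 4 lists. Alternatives covered the replicate block, variance prior, dim probe sets, scaling, thresholds and each array left out. Amy-p and Amy-d share a probe set and are not analysed here.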

Additional observations from a re-analysis of the deposited data

How the results depend on the processing

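Limma called 0 probe sets with the replicate number as a block, where 2187 had an unadjusted p under 0.05, and 0 among bright probe sets, after a further quantile normalization or median centring. The labels give 2 shared numbers without saying that they pair arrays, so the block is not taken as pairing, although deviations of the first replicates from their group means correlated at 0.32 over probe sets. The block changed no call of a member. A trended and robust prior, or an adjusted threshold of 0.1, called 1 probe set, no maltase gene. With an array left out (a lone array is then assumed to vary like the other group) calls ran from 0 to 251. The 251 came without unchallenged replicate 1, and 1 of them was Mal-A1, with a log2 change of 4.01 and an adjusted p of 0.034; over its other alternatives that left out an array the adjusted p was 0.397 to 1.00.

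The median G418 change of 0.58 ran from 0.10 (without unchallenged replicate 2) to 1.17 (without unchallenged replicate 1), and was 0.85 over the 7 bright members. With an array left out, alternatives chosen after seeing the data, members with the G418 arrays above ran from 3 (without unchallenged replicate 2, beside 27.7% of all genes) to 10 (without unchallenged replicate 1, beside 39.3%), and those below from 0 to 2 (without unchallenged replicate 2, beside 32.8%). With median centring Mal-A6 joined Mal-A1, Mal-A2 and Mal-A3, and after quantile normalization Mal-B2 did. With an array left out, the log2 change ran from -0.31 to 1.13 for Mal-A5, from -0.073 to 0.92 for Mal-A7, from -0.53 to 0.56 for Mal-A8 and from -0.20 to 0.18 for Mal-B1. It was negative for Mal-A5 and Mal-A8 (-0.53) without unchallenged replicate 2 and for Mal-A7 and Mal-A8 (-0.41) without G418 replicate 1, and positive for Mal-B1 without unchallenged replicate 1 or G418 replicate 2 (0.08). The causes were not tested. The median F3 difference was -0.47 over the bright members, and from -0.13 to -0.12 under the scalings. At 1.5-fold 3 members differed in the F3 pair, with Mal-A1 joining Mal-A6 and Mal-A8. Averaging probe sets changed nothing, as each member has 1.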
